A study of Rattus norvegicus with 16 samples.

Results

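The T cell genes described here are 10 markers of T lymphocytes, followed through the messenger RNA of the rat (Rattus norvegicus) ventral prostate. They were taken by symbol: Cd3d, Cd3e, Cd3g, Cd4, Cd8a, Cd8b, Cd2, Cd5, Lck and Zap70. All 10 symbols were found among the 28688 entries counted at postnatal day (PND) 21 and the 24218 entries counted at PND540, where 6 and 9 of them passed the filter on low counts and could be tested. The study asked how a low protein diet of the dam affects the gland of the offspring early and late in life. The GLLP group was born to dams that received 6% protein through gestation and lactation, and the CTR group to dams on a diet with 17% protein. At PND540 there were 4 GLLP and 5 CTR glands, and at PND21 there were 3 GLLP and 4 CTR glands, each sequenced as its own library. Each library came from gland tissue, frozen and extracted with Trizol, so a gland with fewer T cells and a gland with less of an RNA in each T cell cannot be told apart. No label ties animals to litters, and the p-values therefore cover only the spread seen among these glands, which may hold littermates.

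T cells recognise antigen through a receptor that signals by way of the CD3 chains, of which Cd3d, Cd3e and Cd3g encode the delta, epsilon and gamma chains. CD4 and CD8 are coreceptors that bring the kinase Lck to the receptor, and Lck then activates the kinase Zap70, which relays the signal. CD2 is an adhesion receptor and CD5 a brake on receptor signalling. Several members are shared with other cells: in the rat, CD4 is also found on macrophages, CD8 alpha, Lck and Zap70 also occur in natural killer cells, and CD5 also occurs on some B cells. The CD3 delta, epsilon and gamma chains and CD8 beta are closer to being restricted to T cells. In the prostate, T cells are found in the stroma and between epithelial cells, and they accumulate in inflamed glands.

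The CD3 genes are shown by their promoters because the 3 genes neighbour each other, while in CTR Cd3d and Cd3e were called between the ages and Cd3g was not. The windows run from 250 bases before to 50 bases after the gene start in RefSeq's annotation of GRCr8, a later assembly than the Rnor_6.0 named for the counts. Cd3d lies on the plus strand (chr8:54185269-54185568), and Cd3g (chr8:54183869-54184168) and Cd3e (chr8:54211721-54212020) lie on the minus strand. The starts of Cd3g and Cd3d point away from each other and are 1601 bases apart, and the start of Cd3e is 26251 bases from that of Cd3d. Capitals mark matches, on either strand, to 6-letter cores of factors known from lymphocytes: AGGAAG (ETS), TGTGGT (RUNX), CAGGTG (E-box) and CTTTGA (TCF/LEF).
Cd3d: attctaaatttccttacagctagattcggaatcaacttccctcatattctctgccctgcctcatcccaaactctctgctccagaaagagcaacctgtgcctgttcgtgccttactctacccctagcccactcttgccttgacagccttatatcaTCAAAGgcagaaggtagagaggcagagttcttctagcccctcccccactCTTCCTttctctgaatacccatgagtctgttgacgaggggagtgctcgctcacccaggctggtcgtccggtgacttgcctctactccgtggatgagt
Cd3e: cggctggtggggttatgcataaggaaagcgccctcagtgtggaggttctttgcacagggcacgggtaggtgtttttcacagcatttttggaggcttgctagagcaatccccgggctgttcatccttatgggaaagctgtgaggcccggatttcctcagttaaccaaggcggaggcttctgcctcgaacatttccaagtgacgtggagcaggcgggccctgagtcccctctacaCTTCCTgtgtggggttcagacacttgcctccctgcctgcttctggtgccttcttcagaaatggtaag
Cd3g: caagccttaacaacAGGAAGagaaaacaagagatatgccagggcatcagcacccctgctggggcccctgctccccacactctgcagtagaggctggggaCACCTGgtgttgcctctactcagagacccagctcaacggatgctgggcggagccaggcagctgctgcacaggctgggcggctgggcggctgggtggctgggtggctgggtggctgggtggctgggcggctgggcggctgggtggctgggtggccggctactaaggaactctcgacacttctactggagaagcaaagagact
The ETS core was found in all 3 windows, at position -47 of Cd3d, -17 of Cd3e and -236 of Cd3g from the gene start. The Cd3d window also held the TCF/LEF core at -96, and the Cd3g window held the E-box at -151. None of these matches overlapped another.

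Of the 10 genes, 8 had a promoter entry, and Lck had 2 starts 17617 bases apart; Cd4 and Cd8b had no entry. The ETS core lay in the promoters of 6 of the 8 genes (Cd3d, Cd3e, Cd3g, Cd5, Lck and Zap70), against 34.5% of all 33469 promoters. The E-box lay in those of 3 genes (Cd3g, Cd5 and Lck; 18.8% of all promoters), the RUNX core in 2 (Cd2 and Lck; 17.3%) and the TCF/LEF core in 2 (Cd3d and Zap70; 16.1%). The Cd8a window held none of the 4 letter strings. A match is a string of letters and not a bound site.

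Libraries held 28748604 to 39161666 counts. Levels are given in CPM, counts scaled to the TMM-corrected size of the library within each day's table, and a level is compared for a gene with itself, since the counts are not divided by transcript length. The tables of the 2 days were made with different gene annotations that share 19709 names, so for every difference between the days, age and table cannot be told apart. CTR replicate 5 at PND540 stood apart: its median correlation with the other libraries was 0.851, against 0.956 or more for the others, and 70.7% of the 14767 genes tested lay outside the range of the other 8. CTR replicate 1 at PND21 held 0.282% of its counts in mitochondrial genes, against 3.66% to 5.02% in the other PND21 libraries. Luminal epithelium markers summed to 3173 to 5591 CPM at PND540 and to 2520 to 3038 CPM at PND21; each of these 8 markers was counted at both ages. Counts of Rag1, Rag2, Dntt and Ptcra, which mark T cells that are still developing in the thymus, were at most 6 in any library.

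At PND540 several T cell genes were higher than at PND21. In GLLP glands, 2 of 8 tested genes rose (Cd3e and Cd4) and none fell (edgeR's quasi-likelihood test, adjusted p under 0.05). Of all 13694 genes, 19.1% were called higher and 17.1% lower, so 2 of 8 is close to the share over all genes. The median log2 fold change of the 8 was 0.72 against 0.02 over all genes. In CTR glands, 7 of 9 tested genes rose (Cd3d, Cd3e, Cd4, Cd8a, Cd8b, Cd2 and Zap70), none fell, and Cd3g and Lck did not pass the test. Among all 13510 genes tested, 17.3% were called higher and 13.2% lower. The median log2 fold change of the 9 genes was 2.71, against 0.07 over all genes. Without CTR replicate 5, 8 of the genes could be tested, and Cd8b was the gene no longer tested. Of these 8, 6 were called higher and the median was 1.77. Over all 13427 genes of that fit, 3490 were called higher and 3084 lower, with a median of 0.0078.

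**Figure D1:**
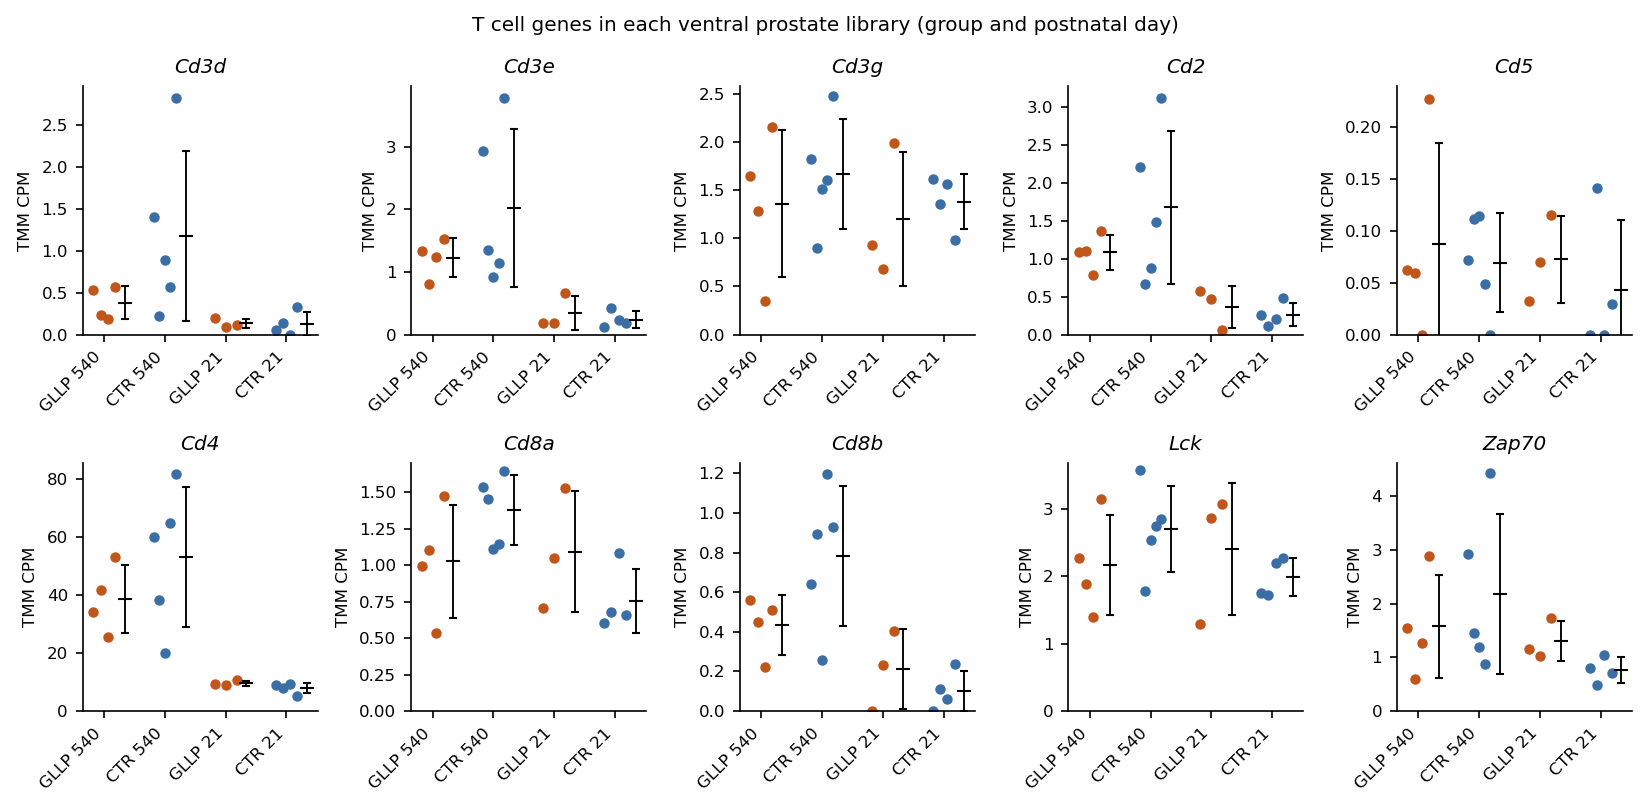
TMM CPM (vertical axes, linear) of each of the 10 T cell genes in every library, by group and postnatal day; points are libraries, and the bar is the mean with 1 SD. CPM were scaled within each day's table; Cd4 lies at 20.2 to 81.7 CPM in all 9 libraries of PND540 and at 5.34 to 10.5 CPM in all 7 of PND21, while Cd3g and Lck overlap between the days.

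Among the receptor chains, Cd3e, whose chain is part of every T cell receptor complex, did not overlap between the days. It measured 1.34, 0.807, 1.23 and 1.53 CPM in GLLP and 2.93, 1.34, 0.914, 1.15 and 3.78 CPM in CTR glands of PND540. In glands of PND21 its level was 0.193, 0.187 and 0.663 CPM in GLLP and 0.115, 0.424, 0.240 and 0.179 CPM in CTR glands. Every PND540 library thus lay above every PND21 library. The log2 fold change, PND540 over PND21, was 1.89 in GLLP (SE 0.58, adjusted p = 0.0316, edgeR), but the call was lost without GLLP replicate 2 (adjusted p = 0.105) or replicate 3 (0.126) of PND21, or without GLLP replicate 1 of PND540 (0.0614). In CTR it was 3.12 (SE 0.58, adjusted p = 0.00281), and it passed in all 9 fits that left out a library.

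Cd3d, the delta chain, was close to the floor at PND21. It measured 0.528, 0.239, 0.190 and 0.568 CPM in GLLP and 1.40, 0.224, 0.885, 0.561 and 2.82 CPM in CTR glands of PND540. At PND21 it measured 0.193, 0.0933 and 0.115 CPM in GLLP and 0.0577, 0.141, 0 and 0.328 CPM in CTR glands, from 0 to 11 counts. CTR replicates 5 and 1 were the highest of PND540, and the days overlapped in CTR. In GLLP the lowest library of PND540 (0.190 CPM) and the highest of PND21 (0.193 CPM) had 6 counts each. Their order depends on the scaling within each day's table. In GLLP the gene did not pass the filter on low counts. In CTR the log2 fold change was 3.17 (SE 0.94, adjusted p = 0.0282, edgeR). It kept its direction but lost its call without replicate 1 (adjusted p = 0.0855), 2 (0.0770) or 3 (0.0582) of CTR at PND21, or without replicate 1 of CTR at PND540 (0.050).

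Cd3g, the gamma chain, passed the test in neither diet. Its levels were 1.65, 1.29, 0.348 and 2.16 CPM in GLLP and 1.82, 0.895, 1.51, 1.61 and 2.47 CPM in CTR glands of PND540. At PND21 they were 0.933, 0.676 and 1.99 CPM in GLLP and 1.62, 1.36, 1.56 and 0.985 CPM in CTR glands. The days overlapped widely, with log2 fold changes of 0.27 in GLLP (SE 0.63, 95% interval -0.97 to 1.51, adjusted p = 0.775, edgeR) and 0.34 in CTR (SE 0.33, 95% interval -0.30 to 0.99, adjusted p = 0.459).

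Of the coreceptor genes, Cd4 was the only 1 called in both diets. It stood at 34.1, 41.7, 25.6 and 53.1 CPM in GLLP and 60.03, 38.3, 20.2, 64.8 and 81.7 CPM in CTR glands of PND540. At PND21 it stood at 9.26, 9.05 and 10.5 CPM in GLLP and 8.83, 8.03, 9.50 and 5.34 CPM in CTR glands. No library of PND540 came down to the PND21 range. Scaled together over the days, GLLP glands averaged 47.3 ± 15.0 CPM at PND540 (SD, n = 4) and 11.1 ± 1.04 CPM at PND21 (SD, n = 3), a 4.26-fold difference (log2 2.09, SE 0.26, adjusted p = 0.000393, edgeR). CTR glands averaged 60.7 ± 26.5 CPM at PND540 (SD, n = 5) and 8.60 ± 1.97 CPM at PND21 (SD, n = 4), a 7.05-fold difference (log2 2.82, SE 0.40, adjusted p = 0.000568). Both calls held in every fit that left out a library.

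Macrophages carry CD4 in the rat, and their markers moved in both directions between the days. Of 12 markers 10 were tested. In GLLP 3 rose (Cd14, C1qa and C1qc), none fell and the median log2 fold change was 0.49, with values of 0.0012 for Csf1r, -0.74 for Cd163 and -1.66 for Mrc1. In CTR 6 rose and 1 (Mrc1) fell, with a median of 1.44, and Marco was at 0 in every library. Their summed level was 444 to 795 CPM in GLLP and 488 to 1804 CPM in CTR glands of PND540, against 225 to 342 CPM in GLLP and 145 to 332 CPM in CTR glands of PND21. The monocyte and macrophage receptor gene Cd14 rose 3.87-fold in GLLP (adjusted p = 0.00110, edgeR) and 4.77-fold in CTR (adjusted p = 0.00798). It made up 51.9% to 77.7% of the summed level at PND540 and 35.2% to 52.5% at PND21. Without Cd14, a choice made after the values were seen, the sum was 126 to 226 CPM in GLLP and 136 to 573 CPM in CTR glands of PND540, against 140 to 182 CPM in GLLP and 93.8 to 158 CPM in CTR glands of PND21, so the days overlapped in both diets. Cd4 counts were 0.0366 to 0.123 of the summed macrophage marker counts at PND540 and 0.0286 to 0.0411 of them at PND21, which overlapped. Set against the sum without Cd14 they were 0.143 to 0.256 at PND540 and 0.0528 to 0.0687 at PND21, with no overlap.

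Cd8a and Cd8b encode the chains of the CD8 coreceptor of cytotoxic T cells. Cd8a measured 0.994, 1.11, 0.537 and 1.48 CPM in GLLP and 1.54, 1.45, 1.11, 1.15 and 1.65 CPM in CTR glands of PND540. The PND21 levels of Cd8a were 0.708, 1.05 and 1.53 CPM in GLLP and 0.606, 0.679, 1.08 and 0.657 CPM in CTR glands. The GLLP libraries of the days overlapped (log2 fold change -0.0050, SE 0.48, adjusted p = 0.994, edgeR), while the CTR libraries of PND540 all lay above those of PND21, with a difference of 0.95 in log2 (SE 0.30, adjusted p = 0.0379). The CTR call was lost without replicate 1 (adjusted p = 0.119), 2 (0.113) or 4 (0.114) of PND21 and without replicate 1 (0.0576) or 2 (0.0647) of PND540. It was also lost with library size alone as the scaling (0.0796) and with no filter (0.0542).

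Cd8b measured 0.559, 0.449, 0.221 and 0.511 CPM in GLLP and 0.644, 0.895, 0.257, 1.20 and 0.928 CPM in CTR glands of PND540. At PND21 it measured 0, 0.233 and 0.403 CPM in GLLP and 0, 0.113, 0.0601 and 0.239 CPM in CTR glands, from at most 14 counts. The GLLP libraries of the days overlapped, and the log2 fold change was 1.09 (SE 0.85, adjusted p = 0.354, edgeR). All CTR libraries of PND540 lay above those of PND21, and the log2 fold change was 2.97 (SE 0.75, adjusted p = 0.0139). Leaving out a library allowed 5 tests in CTR, of which 4 passed, and the adjusted p was 0.0511 without replicate 3 of PND21.

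Cd2, the adhesion receptor, measured 1.09, 1.11, 0.790 and 1.36 CPM in GLLP and 2.22, 0.671, 0.885, 1.49 and 3.13 CPM in CTR glands of PND540. The PND21 levels of Cd2 were 0.579, 0.466 and 0.0576 CPM in GLLP and 0.260, 0.113, 0.210 and 0.478 CPM in CTR glands. The days did not overlap in either diet. The log2 fold change was 1.65 in GLLP (SE 0.65, adjusted p = 0.0798 by edgeR, 0.0480 by DESeq2 and 0.0310 by limma voom) and 2.71 in CTR (SE 0.58, adjusted p = 0.00604 by edgeR), where it held in every fit that left out a library. With the days scaled together in each fit, 3 of 8 tested genes in GLLP were higher at PND540 without overlap (Cd3e, Cd4 and Cd2), against 22.5% of all genes. In CTR these were 5 of 9 (Cd3e, Cd4, Cd8a, Cd8b and Cd2), against 18.8% of all genes. Cd5 had 0 to 8 counts per library at PND540 and 0 to 5 at PND21 and was tested at neither age; its highest levels were 0.227 CPM in a GLLP gland of PND540 and 0.141 CPM in a CTR gland of PND21. For the 4 libraries with a Cd5 count of 0, the exact 95% Poisson interval reached 0.106 to 0.127 CPM.

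Of the kinase genes, Zap70 was called in CTR and Lck in neither diet. Zap70 measured 1.55, 0.598, 1.26 and 2.90 CPM in GLLP and 2.93, 1.45, 1.20, 0.878 and 4.43 CPM in CTR glands of PND540. At PND21 it measured 1.16, 1.03 and 1.73 CPM in GLLP and 0.808, 0.481, 1.05 and 0.716 CPM in CTR glands. CTR replicates 5 and 1 were again the highest of PND540. In GLLP the log2 fold change was 0.36 (SE 0.54, adjusted p = 0.644, edgeR). In CTR it was 1.57 (SE 0.51, adjusted p = 0.0421), a call that was lost without any 1 of the 4 CTR libraries of PND21 (adjusted p = 0.0645 to 0.119) and without CTR replicate 1 of PND540 (0.0799).

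Lck, the kinase that acts before Zap70, measured 2.27, 1.88, 1.39 and 3.15 CPM in GLLP and 3.58, 1.79, 2.54, 2.76 and 2.85 CPM in CTR glands of PND540. The PND21 levels of Lck were 1.29, 2.87 and 3.08 CPM in GLLP and 1.76, 1.73, 2.19 and 2.27 CPM in CTR glands. The days overlapped in both diets, with log2 fold changes of -0.07 in GLLP (SE 0.43, adjusted p = 0.923, edgeR) and 0.52 in CTR (SE 0.27, adjusted p = 0.166). The number of called T cell genes in CTR was 3 of 8 tested, in place of 7 of 9, without CTR replicate 1 of PND540, where Cd8b was not tested. It was 4 of 9 without replicate 1, 2 or 3 of CTR at PND21. Over all genes, 2116 and 1722 to 1797 were called higher in these fits, against 2336 with every library.

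**Figure D2:**
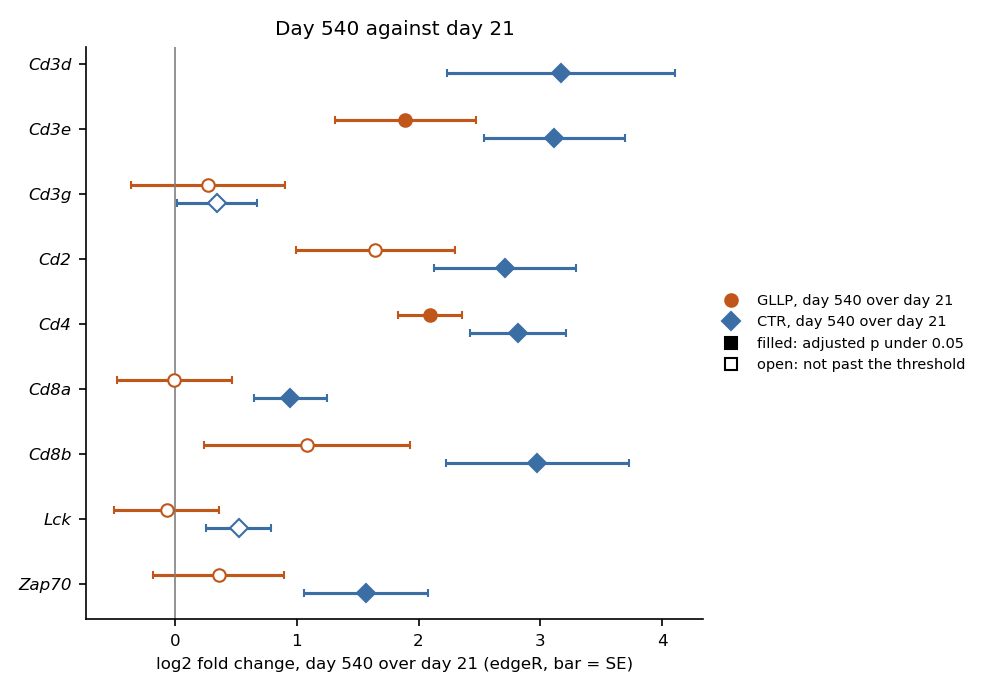
Log2 fold change, PND540 over PND21 (horizontal axis), of each tested T cell gene in GLLP (circles, above) and CTR (diamonds, below), with bars of 1 SE from edgeR; filled symbols passed an adjusted p under 0.05. The CTR values of Cd3d, Cd3e, Cd4, Cd8b and Cd2 lie between 2.71 and 3.17, while Cd3g and Lck lie at 0.34 and 0.52.

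Ratios of raw counts within a library need no scaling and set the genes against each other. Cd3e counts were 0.604 to 3.55 of the Cd3g counts at PND540 and 0.0714 to 0.333 of them at PND21, with no overlap. Cd3e over Lck was 0.360 to 1.33 at PND540 and 0.0650 to 0.246 at PND21, and Cd4 over Cd8a was 18.1 to 56.6 at PND540 and 6.91 to 14.6 at PND21, again with no overlap. Of 6 ratios computed among the T cell genes, the other 3 overlapped between the days. Cd8b over Cd8a was 0.231 to 1.04 at PND540 and 0 to 0.364 at PND21, Cd3d over Cd3g was 0.186 to 1.14 at PND540 and 0 to 0.333 at PND21, and Cd4 over the summed Cd3d, Cd3e and Cd3g was 6.09 to 19.5 at PND540 and 3.58 to 9.46 at PND21. The highest Cd3e over Cd3g ratio came from GLLP replicate 3 of PND540, where 39 counts of Cd3e stood beside 11 of Cd3g. Gene models that differ between the tables would enter such ratios, so age and table cannot be told apart here either.

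**Figure D3:**
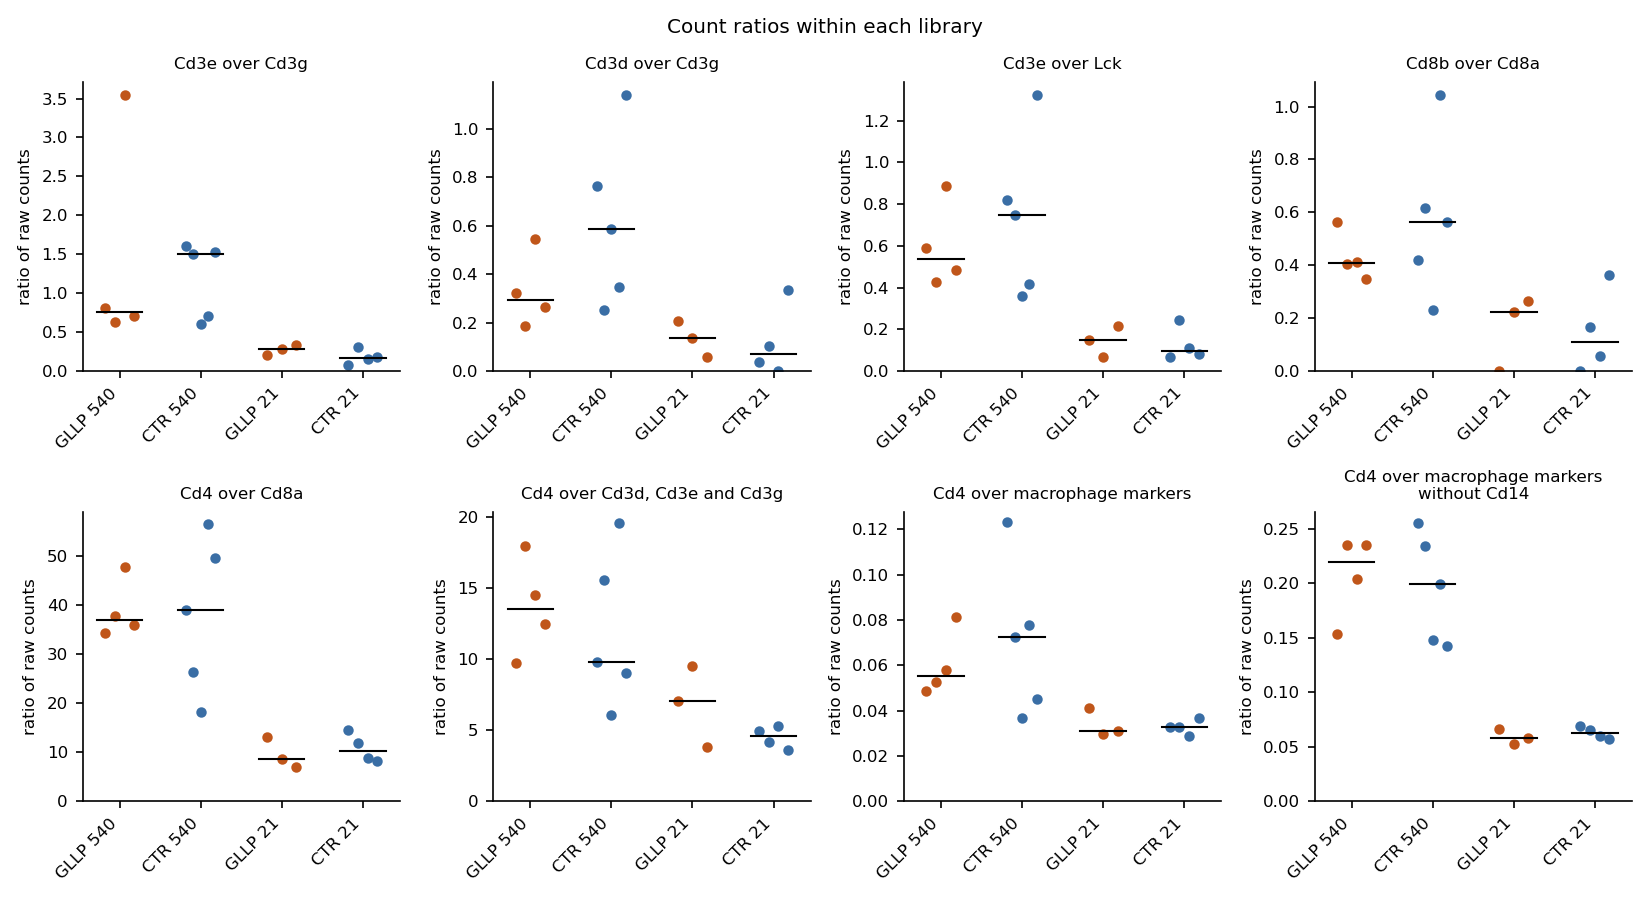
Ratio of raw counts in each library (vertical axes, linear) for 6 ratios among the T cell genes and for Cd4 over the summed macrophage markers with and without Cd14, by group and postnatal day; points are libraries and lines are medians. The days separate for Cd3e over Cd3g, Cd3e over Lck, Cd4 over Cd8a and Cd4 over the macrophage markers without Cd14, and overlap for the other 4.

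Other genes of T cells and neighbouring cell types gave a mixed picture between the days. Of 14 tested T cell receptor signalling genes in GLLP, 2 rose and 1 (Fyn, an Lck-related kinase) fell, with a median log2 fold change of 0.30; of 16 in CTR, 6 rose and 1 (Fyn) fell, with a median of 1.00. In GLLP, Cd6, a receptor related to CD5, measured 3.22 ± 1.02 CPM at PND540 (SD, n = 4) and 0.599 ± 0.150 CPM at PND21 (SD, n = 3), and the log2 difference was 2.42 (SE 0.43, adjusted p = 0.00238 by edgeR). In CTR it measured 5.05 ± 3.38 CPM at PND540 (SD, n = 5) and 0.126 ± 0.0424 CPM at PND21 (SD, n = 4), and the log2 difference was 5.27 (SE 0.61, adjusted p = 0.000187). Nfatc2, a transcription factor downstream of the receptor, rose 4.27-fold in GLLP (adjusted p = 0.00102) and 3.68-fold in CTR (adjusted p = 0.000179), and Cd247, the zeta chain of the receptor complex, rose 4.598-fold in CTR (adjusted p = 0.00232).

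Genes of T cell function moved in both directions. Of the tested checkpoint and costimulatory receptors, 2 of 4 rose in GLLP (Havcr2 and Icos) and Lag3 fell, and in CTR 3 of 4 rose (Havcr2, Cd96 and Icos). Of 6 tested cytotoxic genes, Prf1, encoding perforin, and Ccl5 fell in GLLP, by 2.06 and 1.71 on the log2 scale (adjusted p = 0.00621 and 0.00864, edgeR), and Ctsw rose in CTR (log2 fold change 1.98, SE 0.44, adjusted p = 0.00724). The chemokine receptor gene Cxcr3 rose 3.08-fold in GLLP (adjusted p = 0.0239) and 3.37-fold in CTR (adjusted p = 0.00335), the only 1 to rise of 8 homing and cytokine receptor genes tested in GLLP and 7 in CTR, and Il2rb fell in GLLP. Of the transcription factor genes, 2 of 11 rose in GLLP (Runx3 and Ikzf1) and Ets1 fell, and in CTR 1 of 10 rose (Bcl11b).

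Markers of other cells gave these counts beside the T cell genes. Of natural killer markers, Il18rap fell in both diets and Ncr1 fell in GLLP, of 3 tested in GLLP and 2 in CTR, and none rose. No B cell marker of 2 tested passed in either diet. Among plasma cell markers Jchain rose in both diets and Sdc1 in CTR, of 5 tested, and among dendritic cell markers Itgax rose in both and Cd83 in CTR, of 6 tested. The follicle chemokine gene Cxcl13 rose in both diets (adjusted p = 0.0365 in GLLP and 0.0385 in CTR, edgeR). In the gland's own cells, 4 of 5 stroma markers fell in GLLP and 3 of 5 in CTR, and 2 of 8 luminal markers rose in each diet. The part of such shifts in the T cell genes was not tested.

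Between the diets at PND21, no T cell gene passed the test. Of 6 tested genes (Cd3g, Cd4, Cd8a, Cd2, Lck and Zap70), 0 were called by edgeR, against 1.11% of all 14915 genes, 1 had an unadjusted p under 0.05, and DESeq2 called 0 and limma voom 1. The log2 fold change, GLLP over CTR, was above 0 for 5 of the 6, with a median of 0.38, against 49.5% of all genes and a median of -0.0038. The diets overlapped for all 6, while 17.1% of all genes had no overlap. The median was also above 0 in 12 of the 13 immune lists, such as the macrophage markers (10 of 10 tested above 0, median 0.41) and the cytotoxic genes (6 of 6, median 0.76). The checkpoint, B cell, lymph node stroma and thymocyte lists held only 2 tested genes each. The list with a median below 0 was that of neutrophil and mast cell markers (3 of 7, median -0.04). Of the gland's own cells, the 3 tested basal epithelium markers were as high (3 of 3, median 0.80). Their part in the T cell values was not tested.

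Zap70 had the smallest p at PND21. It averaged 1.30 ± 0.374 CPM in GLLP (SD, n = 3) and 0.764 ± 0.236 CPM in CTR glands (SD, n = 4), with 1 CTR library, replicate 3, above the lowest GLLP library (log2 fold change 0.77, SE 0.33, unadjusted p = 0.0447, adjusted p = 0.250, edgeR). The other values were 0.54 for Cd8a (SE 0.35), 0.47 for Cd2 (SE 0.69), 0.29 for Lck (SE 0.30), 0.28 for Cd4 (SE 0.20) and -0.21 for Cd3g (SE 0.38), with adjusted p of 0.413 to 0.790. The gene that limma voom called was Cd3g, as lower in GLLP (adjusted p = 0.0452), and its edgeR value turned positive, at 0.09, without GLLP replicate 3. Cd3d, Cd3e, Cd8b and Cd5 had too few counts to be tested, and their groups overlapped too.

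At PND540 the T cell genes were lower on average in GLLP glands, within the spread between glands. Of 9 tested genes, 0 were called by edgeR, DESeq2 or limma voom, against 0.0% of all 14767 genes by edgeR. All 9 log2 fold changes, GLLP over CTR, were below 0, with a median of -0.46, while 50% of all genes were above 0 and their median was -0.00030; without CTR replicate 5 the median was -0.29. With limma voom and sample quality weights, the values of Cd4 (0.11), Cd2 (0.13) and Zap70 (0.02) were above 0. The diets overlapped for all 9, as for all but 0.393% of all genes. The median was above 0 in 1 of the 13 immune lists, but not all of the others were clearly below 0. The medians ran from -0.86 (plasma cell markers) to 0.38 (neutrophil and mast cell markers). That of the 9 homing and cytokine receptor genes was -0.0053. The natural killer and thymocyte lists held 1 tested gene each, at -0.0099 and -0.014. Of the 10 tested macrophage markers 3 were above 0, with a median of -0.38, and their part in the T cell values was not tested.

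Cd3d differed most at PND540, at 0.381 ± 0.194 CPM in GLLP (SD, n = 4) and 1.18 ± 1.01 CPM in CTR glands (SD, n = 5). Its log2 fold change was -1.61 (SE 0.72, unadjusted p = 0.0478, adjusted p = 0.914, edgeR). The 95% interval, by a normal approximation, was -3.01 to -0.21. Without CTR replicate 5 the log2 fold change was -0.99 (SE 0.61). Cd3d was the only one of the 9 with an unadjusted p under 0.05, against 123 of all genes, or 0.833%. Cd8b followed at -0.84 (SE 0.50) and Cd3e at -0.72 (SE 0.49), and the other 6 lay between -0.62 (Cd2) and -0.29 (Cd3g), all with an adjusted p of 0.914. Cd4 averaged 38.7 ± 11.7 CPM in GLLP (SD, n = 4) and 53.0 ± 24.0 CPM in CTR glands (SD, n = 5), a log2 fold change of -0.46 with a 95% interval of -1.20 to 0.29.

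**Figure D4:**
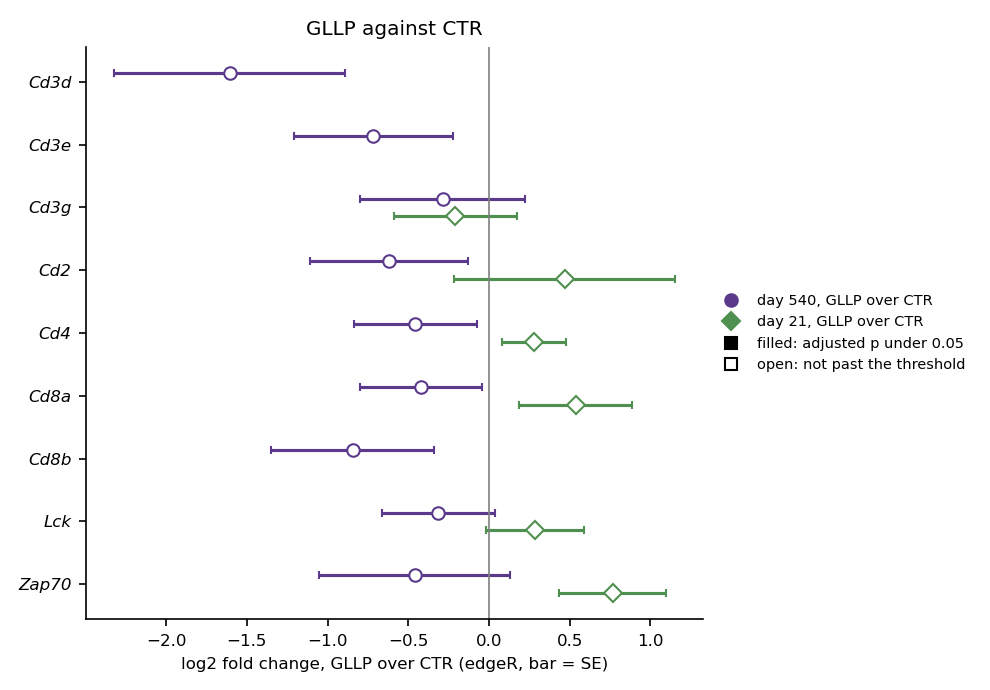
Log2 fold change, GLLP over CTR (horizontal axis), of each tested T cell gene at PND540 (circles, above) and PND21 (diamonds, below), with bars of 1 SE from edgeR; open symbols did not pass an adjusted p under 0.05, and none passed. The PND540 values lie between -1.61 and -0.29, and 5 of the 6 PND21 values lie between 0.28 and 0.77.

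Whether the diet difference itself changed with age was tested as an interaction over all 16 libraries. None of 9 tested genes passed by edgeR, DESeq2 or limma voom, none had an unadjusted p under 0.05 by edgeR, and 0.0917% of all 14178 genes were called. All 9 values were below 0, from -1.87 for Cd8b (SE 1.18) to -0.06 for Cd3g (SE 0.69), with a median of -1.06, against -0.03 over all genes. Cd8a had the smallest p, with a value of -0.94 (SE 0.52, 95% interval -1.95 to 0.07, adjusted p = 0.738, edgeR). Of the other lists of T cell and neighbouring cell types, no gene was called by edgeR for the diet at either age or for the interaction. The age calls in CTR but not in GLLP are therefore not shown to differ between the diets.

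**Figure D5:**
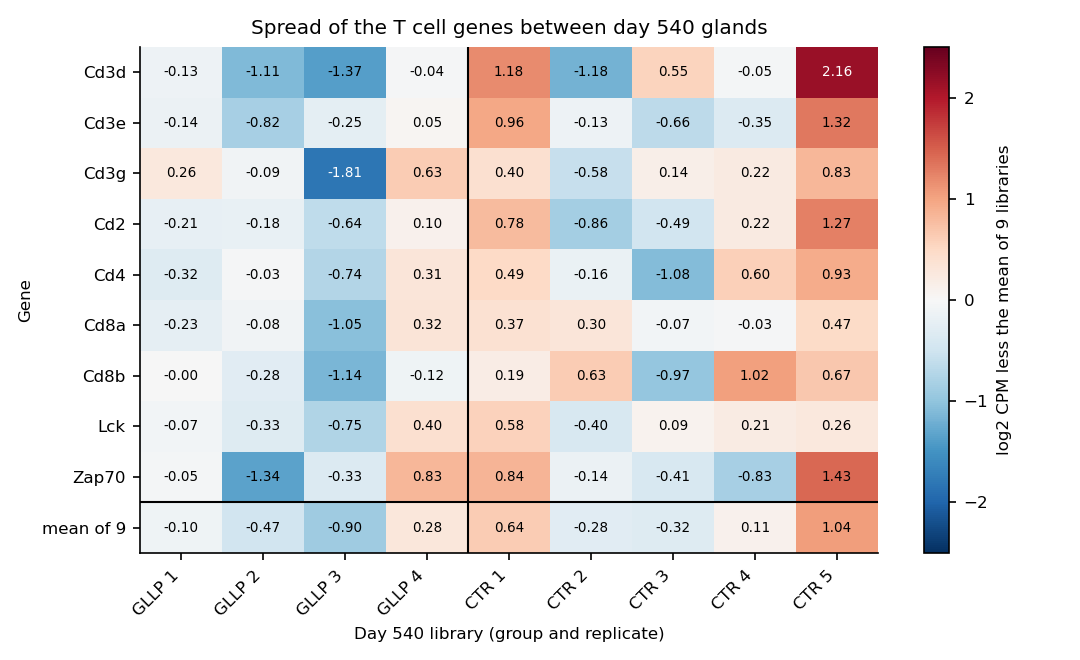
Log2 CPM of the 9 tested T cell genes (rows) in each PND540 library (columns, GLLP left of CTR), less the gene's mean over the 9 libraries; the last row is the mean of the 9 genes. GLLP replicate 3 is lowest on average, at -0.90, and CTR replicates 5 and 1 are highest, at 1.04 and 0.64.

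Glands of PND540 differed in their T cell genes, taken here over both diets together. The SD of log2 CPM over the 9 libraries had a median of 0.71 over the 9 genes, against 0.56 over all 14767 genes, and 7 of the 9 lay above the median of all genes. Without CTR replicate 5 the medians were 0.59 and 0.32, and all 9 lay above. The comparison was not matched on level. Apart from Cd4, these genes reached at most 4.43 CPM, and low counts alone raise such an SD. Cd3d varied most, with 14.9-fold between its highest and lowest library (7.36-fold without CTR replicate 5), followed by Zap70 at 7.41-fold and Cd3g at 7.11-fold, and Lck varied least, at 2.57-fold. Over both diets, the counts scattered by 3.07 (Cd8a) to 277 (Cd4) times the variance from counting alone, as chi-square per degree of freedom. Within a diet this was 1.63 (Cd8b) to 117 (Cd4) in GLLP and 1.41 (Cd8a) to 367 (Cd4) in CTR glands. This measure grows with the number of counts, so it does not rank genes of unlike level.

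The mean of the 9 genes, each centred on its own average, was -0.10, -0.47, -0.90 and 0.28 on the log2 scale in GLLP replicates 1 to 4. It was 0.64, -0.28, -0.32, 0.11 and 1.04 in CTR replicates 1 to 5. The highest and lowest libraries thus fell in different diets, and the diets overlapped. GLLP replicate 3 was the lowest library for 5 genes (Cd3d, Cd3g, Cd8a, Cd8b and Lck). CTR replicate 5 was the highest for 7 (Cd3d, Cd3e, Cd3g, Cd4, Cd8a, Cd2 and Zap70), and CTR replicate 1 was among the highest 3 for 8 of the 9. Of all 14767 genes tested, 70.7% were either higher or lower in CTR replicate 5 than in every other PND540 library. That share counts both directions, and the share of all genes highest there is not given. The 7 values are therefore not shown to be particular to the T cell genes.

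In CTR replicate 5 all 9 tested T cell genes lay above their mean over the libraries. Other genes of T cells and white blood cells were not all high there. Ptprc, encoding CD45 of all white blood cells, was at 1.13 CPM there, its lowest level, against 4.55 to 15.8 CPM in GLLP and 5.88 to 15.95 CPM in the other CTR glands. Of the 16 tested receptor signalling genes, 6 were highest and 4 lowest in that library. The adaptor gene Lat was at 11.4 CPM there, against 1.27 to 3.54 CPM in the other 8 libraries, and the costimulatory receptor gene Cd28 was at 0.0344 CPM, against 0.0897 to 1.72 CPM. The macrophage markers summed to 1804 CPM in that library, against 444 to 836 CPM in the others, and without Cd14 to 573 CPM, against 126 to 325 CPM. CTR replicate 5 was highest for 3 and lowest for 5 of 10 tested T cell transcription factor genes. Of 8 luminal epithelium markers it was highest for 2 and lowest for 3. It was highest for all 3 tested basal epithelium markers. The part of these differences in its T cell gene levels was not tested. GLLP replicate 3 was lowest for 10 of the same 16 signalling genes.

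The members followed their common course unevenly. Each gene's centred log2 CPM was set against the centred mean of the other members over the 9 libraries. The root mean square difference was smallest for Cd2, at 0.30. Of the 12089 other genes described next, 0.488% had a smaller difference from the mean of all 9 members. The difference from the other members was 0.35 for Lck, 0.38 for Cd8a and 0.40 for both Cd3e and Cd4. It was largest for Cd3d at 0.74 and Cd8b at 0.61. Among 12089 other genes with a mean of at least 1 CPM, the 8 nearest to the mean of the members were Fcgr1a (0.14), Rac2 (0.19), Irgm2 (0.19), P2ry6 (0.20), Ptpn7 (0.20), Cst7 (0.21), Ptprcap (0.23) and Cd247 (0.23), where the median gene was at 0.69. All 8 were lowest in GLLP replicate 3, and 6 were highest in CTR replicate 5. The mean of the members has these same extremes, so the choice by nearness to it favours such genes and this is no separate result. Without CTR replicate 5, Fcgr1a and Rac2 were the only 2 of these 8 among the nearest 8.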

How the data were processed

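Messenger RNA of the ventral prostate was sequenced in 16 rats. The authors deposited raw counts per gene, whole numbers that were not normalized, in 1 table for each age. The submitters' processing notes list STAR, Rnor_6.0 and edgeR 3.34.0 with no roles; how reads were counted, on which annotation and with which strand setting is not given in the sources used here, so reads of overlapping and antisense genes cannot be separated. Totals ran from 28748604 to 39161666 counts, and intervals on single counts cover counting error only.

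Each comparison was fitted with edgeR 4.0.16 (R 4.3.3) across all genes: filterByExpr on the groups, TMM scaling, robust quasi-likelihood fits and tests, and Benjamini-Hochberg adjustment at 0.05. The diet was tested within each age, and age within each diet and the interaction on the 19709 gene names that both tables hold. Log2 CPM used a prior count of 2. Replicates were 3 to 5 libraries; their pairwise chi-square per degree of freedom was 32.2 to 880, so none was counted as a duplicate. Replicate numbers are those of the sample titles; the sample descriptions number the GLLP glands differently, so that no GLLP and CTR gland share a number at PND21 and 1 pair does at PND540. By the titles, same-numbered GLLP and CTR libraries did not deviate together (correlations of -0.165 to 0.300), so the numbers were not taken to pair them. The scripts were tested on simulated data.

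The members and the 16 context lists were chosen with earlier results of these data known. All 10 members are named; from each context list and comparison the 3 genes with the lowest p among those tested (calls before others), and by the likeness rule the 8 nearest genes. Mrc1, Marco, Fyn in CTR, Csf1r, Cd163, Ptprc, Cd28, Rag1, Rag2, Dntt, Ptcra, Cd79a and Ms4a1 were named outside this rule, after their values were seen. At PND540 59.4% of counts from 1 to 60 were even, against 55.2% at PND21. Were some counts made in pairs, the Poisson intervals would be too narrow and the chi-square values too high, which was not tested.

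Alternatives were other scalings (library size alone, RLE), other tools (limma 3.58.1 voom with sample quality weights, DESeq2 1.42.0), other filters (1 CPM, none), dispersions without robust fitting, a joint fit, a replicate block and leaving out each library. Figures were drawn with matplotlib 3.10.9.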

Additional observations from a re-analysis of the deposited data

Results flagged for a closer look

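Cd8a in CTR replicate 3 of PND21 was far from the other CTR libraries of that age, at 1.08 CPM against 0.606 to 0.679 CPM. It was the only such value among 30 combinations of a T cell gene and a group of 4 or 5 libraries. Chance alone flags about 1 in 20 of them.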

How the results depend on the processing

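The number of T cell genes called between the ages in GLLP was 2 of 8 tested, and 1 to 2 of 8 or 9 when a library was left out. Over all genes, 2611 were called higher there, and 1796 to 2567 with a library left out. In CTR it was 7 of 9 T cell genes, 4 of 6 with a filter at 1 CPM, and 3 to 7 of 8 or 9 with a library left out. Over all genes, 2336 were called higher in CTR, 2096 at 1 CPM and 1722 to 3490 with a library left out. For the diet at PND21 the number of T cell genes called was 0, and 1 with limma voom. The median SD over the T cell genes at PND540 was 0.59 to 0.76 when a library was left out. Library size alone as scaling took the median of all genes from -0.0038 to 0.14 for the diet at PND21. For age in GLLP it took that median from 0.019 to -0.16. It turned no T cell gene's direction.

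The replicate number of the sample titles as a block, though the numbers do not pair the samples, gave 1 called T cell gene for age in GLLP and 4 for age in CTR, fits in which the descriptions' numbers would match the same libraries. It gave 0 for the diet at either age and for the interaction, and over all genes 27 calls for the diet at PND21. Signs turned under the block for Cd3g, to -0.00365 for age in GLLP and 0.0746 for the interaction.

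Signs also turned with limma voom for the diet at PND540 (Cd4 0.11, Cd2 0.13, Zap70 0.0205), for Cd8a in age in GLLP (0.0264, and 0.00711 in the joint fit) and for the interaction (Cd3e 0.11, Cd3g 0.79); the cause was not tested. With a library left out, Cd3g ran from -0.79 to 0.0867 for the diet at PND21, from -0.57 to 0.0324 for the diet at PND540, from -0.0420 to 0.85 for age in GLLP and from -0.38 to 0.51 for the interaction. For age in GLLP, Cd8a ran from -0.23 to 0.32, Lck from -0.37 to 0.15 and Zap70 from -0.12 to 0.63. Over all gene results of the T cell genes, 699 kept direction and side of the threshold, 24 turned sign, 24 lost and 3 gained a call.

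Over all genes, 166 calls for the diet at PND21 became 650 with library size alone, 972 with DESeq2, 3490 with limma voom, 40 in the joint fit and 62 to 1509 with a library left out. At PND540, 0 became 2 with DESeq2. The interaction's 13 became 46 with DESeq2, 35 with limma voom and 7 to 16 with a library left out, and the 4117 for age in CTR became 7368 with limma voom and 3040 to 6574 with a library left out. Depth limits Cd5, Cd8b, Cd3d and Cd3e at PND21, where counts were 0 to 23.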

Other observations

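CTR replicate 1 of PND540 was the second highest library for the T cell genes. It held some genes of other lymphoid cells at levels that no other PND540 library reached. These genes were chosen after their values were seen. Cxcl13, a chemokine of lymphoid follicles, was at 15.99 CPM there, against 0.299 to 2.75 CPM in GLLP and 0.275 to 1.71 CPM in the other CTR glands. Jchain, the joining chain of secreted antibodies, was at 57.0 CPM, against 1.61 to 23.0 CPM in GLLP and 1.74 to 9.95 CPM in the other CTR glands. The B cell gene Cd79a had 45 counts there and at most 7 in any other PND540 library, and Ms4a1, which encodes CD20, had 27 counts there and at most 4 elsewhere. Cd28 was at 1.72 CPM in that library and at 0.454 CPM or less in every other. Ms4a1 had at most 3 counts in any PND21 library. Of the tested markers at PND540, CTR replicate 1 was highest for 4 of 6 plasma cell markers. It was highest for 1 of 2 B cell markers and 1 of 4 lymph node stroma markers. The same gland was the lowest of the 9 for all 6 tested stroma markers, which summed to 238 CPM there against 302 to 828 CPM in GLLP and 510 to 685 CPM in the other CTR glands. It was also the lowest for all 3 tested basal epithelium markers, at 152 CPM against 198 to 386 CPM in GLLP and 181 to 1192 CPM in the other CTR glands. The part of this difference in its T cell gene levels was not tested.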
